A study of Mus musculus with 11 samples.

Results

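Copies of ribosomal protein genes that sit elsewhere in the mouse genome were examined in the cerebral cortex of mice with and without Abi3. A gene was taken as a member if its symbol began with Rpl or Rps and a number and ended in -ps, with or without a further number, and if its raw counts summed to at least 50 over the 11 animals. Gm11942 and Gm17511, copies of Rplp1 without such a symbol, were added by name and met the same limit. The -ps members were thus chosen on their summed count, whereas both copies of Rplp1 were selected on their known genotype difference, so their values below are a description and carry no test. Of 309 genes with a fitting symbol or name, 136 had no count in any animal, 150 had 1 to 49 counts and 23 were members, 21 with a -ps symbol and 2 added by name. For comparison, 15035 of the 53700 listed genes reached the same sum, and so did 205 of 10244 annotated processed pseudogenes.

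The animals were female mice of 8 months, given as C57BL/6 in the labels, and all carried the 5xFAD transgene, in which the Thy1 promoter drives human genes with familial Alzheimer's disease mutations. Both groups therefore deposit amyloid, and they differed by genotype at Abi3, which encodes a subunit of the actin-regulating WAVE complex found mainly in microglia. There were 6 animals with both copies of the gene (Abi3+/+) and 5 homozygous for a null allele (Abi3-/-). Per the study's methods the 5xFAD line had a mixed B6SJL background, the null allele was made on C57BL/6N, and every animal kept was heterozygous for the Trem2 variant of SJL mice. RNA was read near its 3′ end by QuantSeq, with 1 library per animal and 3202310 to 5501958 reads in genes.

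Ribosomal proteins are made in large amounts by every cell, and their spliced mRNAs have been copied back into the genome many times by the reverse transcriptase of LINE-1 elements. Such a processed copy lacks introns and a promoter of its own, and is called a pseudogene because most copies carry changes or lie where they are not transcribed. Because a copy and its parent gene can be nearly identical, a short read from one can match the other, and reads that match several places equally well are not given to any gene.

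The libraries were checked before the members were compared. Raw counts of Abi3 itself were 10 to 38 in Abi3+/+ and 0 to 2 in Abi3-/- animals. Markers of cortical excitatory neurons, interneurons, astrocytes, oligodendrocytes, microglia and endothelium were counted in every animal, and 0 genes of these lists passed the threshold of an adjusted p of 0.05 in DESeq2. The summed choroid plexus markers ran from 42.7 to 3486 normalized counts in Abi3+/+ and from 85.9 to 2296 in Abi3-/- animals, the widest spread of the 9 marker lists along with those of blood. Reads outside genes were fewer in Abi3-/- libraries, at 54.0 ± 4.99 (SD, n = 5) per 100 reads in genes against 65.9 ± 3.67 (SD, n = 6) in Abi3+/+ libraries (two-sided exact permutation test, p = 0.00866, adjusted to 0.026 over the 3 measures of the libraries). The total of reads in genes (exact p = 0.13, adjusted 0.195) and the alignments to several places (exact p = 0.364, adjusted 0.364) did not pass. The part of these library differences in the counts of the pseudogenes was not tested.

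The 23 members lay on 12 chromosomes and matched 20 parent genes. Each was matched best by the parent its name gives, at an identity of 89.8% to 100%, and 6 were identical to the parent over the whole aligned length. The annotation calls 17 of them processed pseudogenes, 3 transcribed processed pseudogenes and 3 protein-coding genes (Rpl9-ps6, Rps18-ps6 and Rpl10-ps3). No other gene lay over 10 members, 9 lay inside a gene on the same strand and 4 inside a gene on the opposite strand only. To see how much of each member a read of 76 bases could tell apart, all windows of that length that touch the gene were searched for exact matches in the rest of the genome and in spliced transcripts. Windows found nowhere else made up 94.2% of those touching Rps27a-ps1 and 9.27% of those touching Rpl31-ps8. Trimmed reads can be shorter than 76 bases, and with windows of 50 bases these shares were 88.9% and 3.75%. In 5 members, all identical to the parent, no window that lies wholly inside the gene was particular to it, and the windows that were all reached into the flanking sequence.

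**Figure D1:**
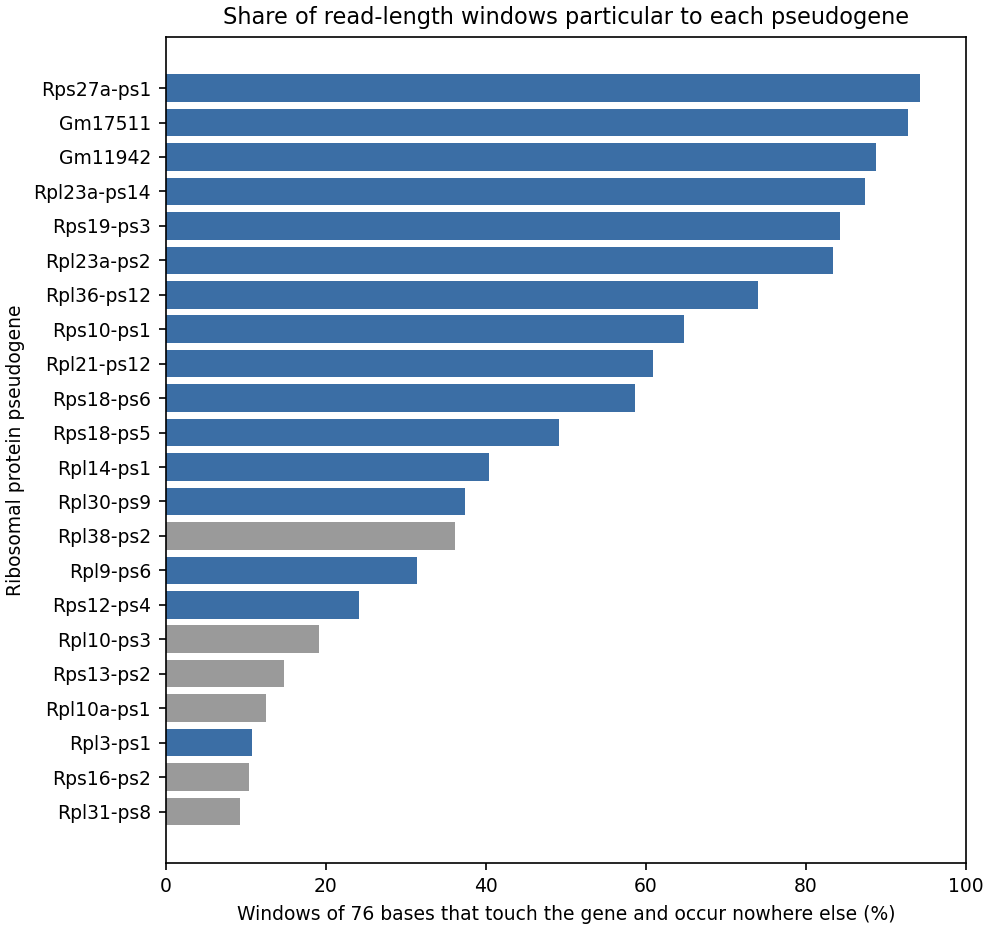
Percent of 76-base windows touching each of 22 of the 23 pseudogenes that occur nowhere else in the genome or in transcripts of other genes, from 9.27% for Rpl31-ps8 to 94.2% for Rps27a-ps1. Grey bars mark the 6 members whose aligned part is identical to the parent gene.

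Rps13-ps2 shows where such a member stops being readable. The gene as annotated (processed pseudogene, chromosome 7, 88179654 to 88180106, minus strand, GRCm39) is a perfect copy of 453 bases of Rps13, with 0 particular windows out of 378 inside it and 78 out of 528 that touch it. Its last 40 bases are given here in lower case, followed by the 30 bases beyond its annotated end in capitals (chr7:88179624-88179693, minus strand), because those 30 bases also hold 0 differences from the parent mRNA.
Rps13-ps2: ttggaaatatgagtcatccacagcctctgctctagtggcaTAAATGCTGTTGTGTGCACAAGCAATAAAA
The capitals open with the stop codon, so the annotated gene ends with the copied coding sequence and the copy itself runs on.

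Both copies of Rplp1 separated the genotypes, the difference for which they had been selected, at very unlike counts. RPLP1 is one of the acidic proteins of the stalk of the large ribosomal subunit, which recruits translation factors. Gm11942 (ENSMUSG00000094344, processed pseudogene, chromosome 4, 32964888 to 32965232, plus strand, no other gene there) held 11859 of the members' raw counts, against 2334 for all 21 -ps members together. Gm17511 (ENSMUSG00000090460, processed pseudogene, chromosome 7, 126885216 to 126885557, minus strand, no other gene there) held 57.

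The sequences of both copies are shown for the stretch nearest the 3′ end, where QuantSeq reads fall, with capitals at the bases that differ from Rplp1 (chromosome 9, 61820557 to 61821872, minus strand). The Rplp1 line has capitals where Gm11942 differs from it. The stretches are chr4:32965053-32965232 on the plus strand for Gm11942 and chr7:126885216-126885392 on the minus strand for Gm17511, both in GRCm39.
Gm11942: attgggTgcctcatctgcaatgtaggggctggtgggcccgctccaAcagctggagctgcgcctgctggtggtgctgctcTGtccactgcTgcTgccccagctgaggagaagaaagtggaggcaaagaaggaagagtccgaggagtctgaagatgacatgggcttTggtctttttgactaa
Rplp1: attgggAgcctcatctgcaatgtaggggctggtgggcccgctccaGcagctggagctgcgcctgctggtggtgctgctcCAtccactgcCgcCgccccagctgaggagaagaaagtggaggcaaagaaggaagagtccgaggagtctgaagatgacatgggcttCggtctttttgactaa
Gm17511: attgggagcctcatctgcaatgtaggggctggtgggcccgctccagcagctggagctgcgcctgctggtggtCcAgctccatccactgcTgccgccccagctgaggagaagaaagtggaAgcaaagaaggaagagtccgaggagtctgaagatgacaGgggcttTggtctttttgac
Gm11942 differed from Rplp1 at 7 of these 180 bases and Gm17511 at 6 of 177. Counted from 1 at the 5′ end of each copy, C255T and C330T were found in both, as Rplp1 base, position and base of the copy. Of all windows of 76 bases that touch the gene, 373 of 420 were particular to Gm11942 and 387 of 417 to Gm17511, and Rplp1 itself had 279 of 472 such windows in its mRNA.

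Raw counts of Gm11942 in Abi3-/- animals 1 to 5 were 1, 0, 4, 11 and 1. In Abi3+/+ animals they ran from 1224 to 3226, with a median of 1720, so the groups were far apart. Summed over animals there were 17 counts against 11842, which is a 464-fold lower level per unit of size factor (exact binomial 95% interval 290 to 797, counting error only). All counts of Gm17511 were in Abi3+/+ animals, where they were 9, 16, 2, 13, 13 and 4 in animals 1 to 6. Set against a floor of 3 counts per library, the mean of Gm17511 was at least 2.41-fold lower in Abi3-/- animals. Abi3+/+ animal 3, with 2 counts, lies under that floor and cannot be told from the Abi3-/- animals. DESeq2 gave log2 fold changes of -8.81 (SE 0.575) for Gm11942 and -5.31 (SE 1.16) for Gm17511, and the latter depends on the fitting since 1 group is at 0. Abi3-/- animal 4 held 11 of the 17 counts of Gm11942. The log2 fold change of Gm11942 was -10.02 without that animal, and between -8.90 and -8.48 without any other 1 animal.

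Whether the reads counted for Gm11942 and Gm17511 came from these loci or from Rplp1 transcripts of other sequence cannot be told from counts, so these values are of reads given to each gene. The share of Gm11942 in the reads given to Gm11942 or Rplp1 fell into 3 levels. It was 31.1%, 37.0%, 34.4%, 34.9% and 36.8% in Abi3+/+ animals 1, 2, 3, 5 and 6, and 65.2% in Abi3+/+ animal 4 (exact binomial 95% interval 63.9% to 66.6%). In Abi3-/- animals 1 to 5 it was 0.0253%, 0%, 0.115%, 0.334% and 0.0305%, and the 0 of animal 2 allows a share of up to 0.0706% (3 counts of the total). The interval covers counting error only.

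The other copies of Rplp1 are few in these counts. Of 16 annotated processed pseudogenes that match Rplp1, 3 reached a sum of 50, Gm11942, Gm17511 and Gm10073, and 8 had no count. Gm10073 is outside the rule for members and is named here after its values were seen. It lies on chromosome 8 (107299641 to 107299982) and matches Rplp1 at 98.5%, closer than Gm11942 at 97.4% and Gm17511 at 95.03%. Its normalized counts had a mean of 18.9 ± 3.04 (SD, n = 5) in Abi3-/- and 8.53 ± 5.09 (SD, n = 6) in Abi3+/+ animals, with 1 Abi3+/+ animal at 16.0 above the lowest Abi3-/- animal at 15.2, and the difference did not pass (log2 fold change 1.15, SE 0.459, DESeq2 adjusted p = 0.379). Rplp1 had a log2 fold change of 0.63 (SE 0.172) that did not pass in the DESeq2 fit used here, with independent filtering switched off (adjusted p = 0.0636). It passed with DESeq2 when that filtering was on (adjusted p = 0.0295) or at a mean count of at least 10 (0.0493), and with edgeR (0.000971) and limma (0.000567). Over the 19 alternatives its adjusted p ran from 9.24e-11 (without Abi3+/+ animal 4) to 0.253 (without Abi3-/- animal 2). In normalized counts Rplp1 ran from 1465 to 3098 in Abi3+/+ and from 3712 to 4294 in Abi3-/- animals.

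**Figure D2:**
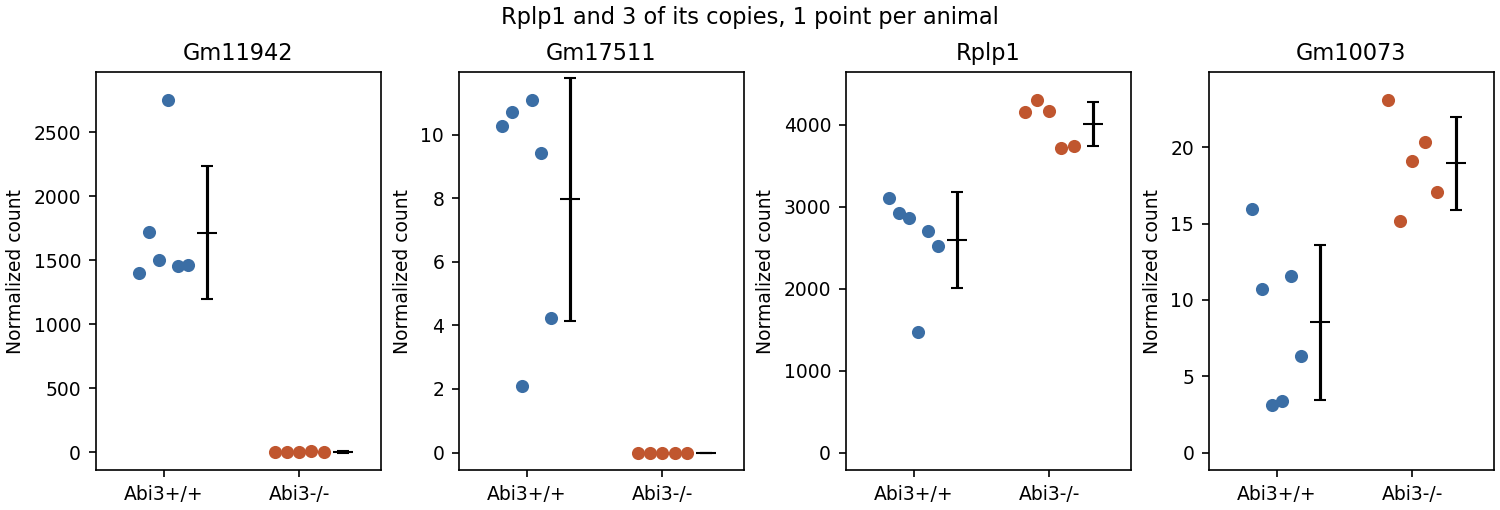
Normalized counts of Gm11942, Gm17511, Rplp1 and Gm10073, with 1 point per animal and bars for the mean ± SD of 6 Abi3+/+ (blue) and 5 Abi3-/- (orange) animals. Gm11942 is at 1397 to 2748 in Abi3+/+ and at 0 to 12.4 in Abi3-/- animals, and Gm17511 is at 0 in every Abi3-/- animal.

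No -ps member separated the genotypes as the copies of Rplp1 did. With DESeq2, 0 of the 21 passed an adjusted p of 0.05 in either direction, while 3 had an unadjusted p under 0.05, 2 lower and 1 higher in Abi3-/- animals. The numbers were 0 and 3 with edgeR, and 0 and 1 with limma. Among all 17626 genes tested, 0.329% passed, 0.17% higher and 0.159% lower, and 8.58% had an unadjusted p under 0.05. Both members past the threshold, counted over all 23, were the copies of Rplp1 that their genotype difference had selected. Normalized counts did not overlap between the genotypes in the same 2 members and in 0 of the 21, against 1.04% of all genes tested. For Gm17511 this includes Abi3+/+ animal 3, with only 2 raw counts.

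The direction of the -ps members was mixed. Log2 fold changes ran from -1.34 to 2.71, 12 above and 9 below 0, with a median of 0.20 against -0.00334 over all genes tested. Over all 23 members the median was 0.14, and it turned to -0.18 without Abi3-/- animal 4. Standard errors of 0.399 to 1.31 on the log2 scale show what these low counts allow, and adjusted p-values ran from 0.405 to 0.987. Mean normalized counts of the -ps members lay between 4.74 and 20.99, and differences within those errors were not detectable at this depth. In bulk cortex fewer cells of a type and less RNA per cell cannot be told apart.

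**Figure D3:**
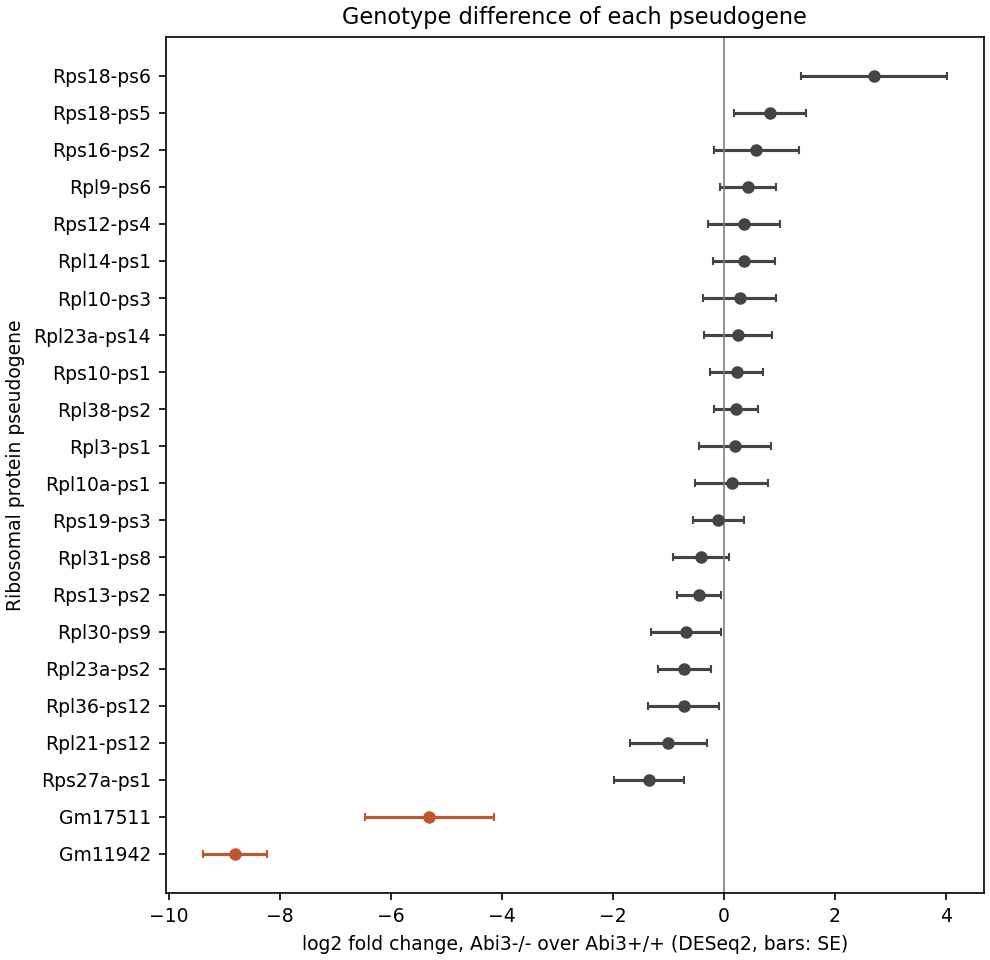
Log2 fold change of 22 of the 23 pseudogenes in Abi3-/- relative to Abi3+/+ cortex, with bars of 1 SE from DESeq2 (6 and 5 animals). The 2 copies of Rplp1 (orange) stand at -8.81 and -5.31, and the 20 -ps members drawn (grey) lie between -1.34 and 2.71.

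Copies of small-subunit genes included Rps27a-ps1 and Rps18-ps6, which had an unadjusted p under 0.05 without passing the test. Summed raw counts were 73 in Abi3+/+ and 20 in Abi3-/- animals for Rps27a-ps1, and 16 and 64 for Rps18-ps6. Each met the limit on the summed count only through the group in which it was higher. The unadjusted p-values of both thus rest on counts that the limit had already used, and are given as a description. Rps27a-ps1 (ENSMUSG00000101501, transcribed processed pseudogene, chromosome 1, 52561398 to 52561860, plus strand, in an exon of Gm53065 on the same strand) copies the gene for a fusion of ubiquitin with a small-subunit protein, and is the member least like its parent, at 89.8%. Its normalized counts were 1.05, 5.05, 3.58, 6.78 and 5.69 in Abi3-/- animals 1 to 5, and 17.1, 4.68, 14.6, 19.6, 6.52 and 5.29 in Abi3+/+ animals 1 to 6. Abi3+/+ animals 1, 3 and 4 stood above all others, and the remaining Abi3+/+ animals overlapped the Abi3-/- animals. The log2 fold change was -1.34 (SE 0.628, unadjusted p = 0.0325, DESeq2 adjusted p = 0.525), against 0.22 (SE 0.122) for Rps27a.

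Rps18-ps6 (ENSMUSG00000069117, annotated as protein-coding, chromosome 13, 97896580 to 97897140, minus strand, in an intron of Gm41031 on the same strand and over Rps18-ps4 on the other) had no count in some animals and its highest counts in others. Gm41031 and Rps18-ps4 had no count in any animal. Raw counts of Rps18-ps6 were 0, 7, 0, 3, 1 and 5 in Abi3+/+ animals 1 to 6, and 1, 0, 7, 31 and 25 in Abi3-/- animals 1 to 5. Abi3-/- animals 4 and 5 were high, and the other Abi3-/- animals lay with the Abi3+/+ animals.

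The log2 fold change of Rps18-ps6 was 2.71 (SE 1.31, unadjusted p = 0.0385, DESeq2 adjusted p = 0.544), and its variance within groups was 15.2 times its mean, the highest of the -ps members. The parent Rps18 had a log2 fold change of -0.15 (SE 0.146), and Rps18-ps5, a second copy on chromosome 13 (28441511 to 28442117), had low normalized counts of 5.65 and 1.14 in Abi3-/- animals 4 and 5 and higher ones of 12.6, 14.1 and 15.5 in animals 1 to 3. Both copies of Rps18 thus differed in which Abi3-/- animals were high.

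Part of Rps18-ps6 and the matching part of the Rps18 mRNA are shown, since reads can be told apart only where they differ (chr13:97896661-97896770, minus strand, GRCm39). Capitals mark the 3 differing bases, A381C, G415A and G475A, counted from the 5′ end of the copy, with the Rps18 base first.
Rps18-ps6: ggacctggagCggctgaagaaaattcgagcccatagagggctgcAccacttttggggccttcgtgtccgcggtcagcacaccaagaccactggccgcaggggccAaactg
Rps18: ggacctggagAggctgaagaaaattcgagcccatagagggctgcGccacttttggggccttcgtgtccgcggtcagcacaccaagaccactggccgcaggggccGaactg
Windows particular to Rps18-ps6 made up 58.6% of those that touch it.

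Rps13-ps2, whose end was shown above, had the highest mean count of the -ps members. Its normalized counts were 4.19, 15.2, 33.4, 15.8 and 19.3 in Abi3-/- animals 1 to 5, and the lowest, median and highest were 16.9, 25.2 and 31.4 in Abi3+/+ animals. Abi3-/- animal 3 was above and animals 1, 2 and 4 were below every Abi3+/+ animal, and the log2 fold change of -0.45 (SE 0.399) did not pass (DESeq2 adjusted p = 0.846). Rps13 itself stood at -0.02 (SE 0.1).

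Other copies of small-subunit genes varied little by genotype. Rps19-ps3 (chromosome 4, 147906234 to 147906659) had a mean normalized count of 12.9 ± 4.13 (SD, n = 6) for Abi3+/+ and 12.05 ± 7.03 (SD, n = 5) for Abi3-/- animals, and its log2 fold change of -0.10 (SE 0.468) changed sign without Abi3+/+ animal 1 or Abi3-/- animal 1, 2 or 3. Rps10-ps1 had the steadiest counts of all members, with 4.01 to 10.3 in Abi3+/+ and 8.36 to 12.1 in Abi3-/- animals, and a variance of 0.416 times its mean. Rps12-ps4 had a log2 fold change of 0.37 (SE 0.645) and Rps16-ps2 one of 0.59 (SE 0.769).

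**Figure D4:**
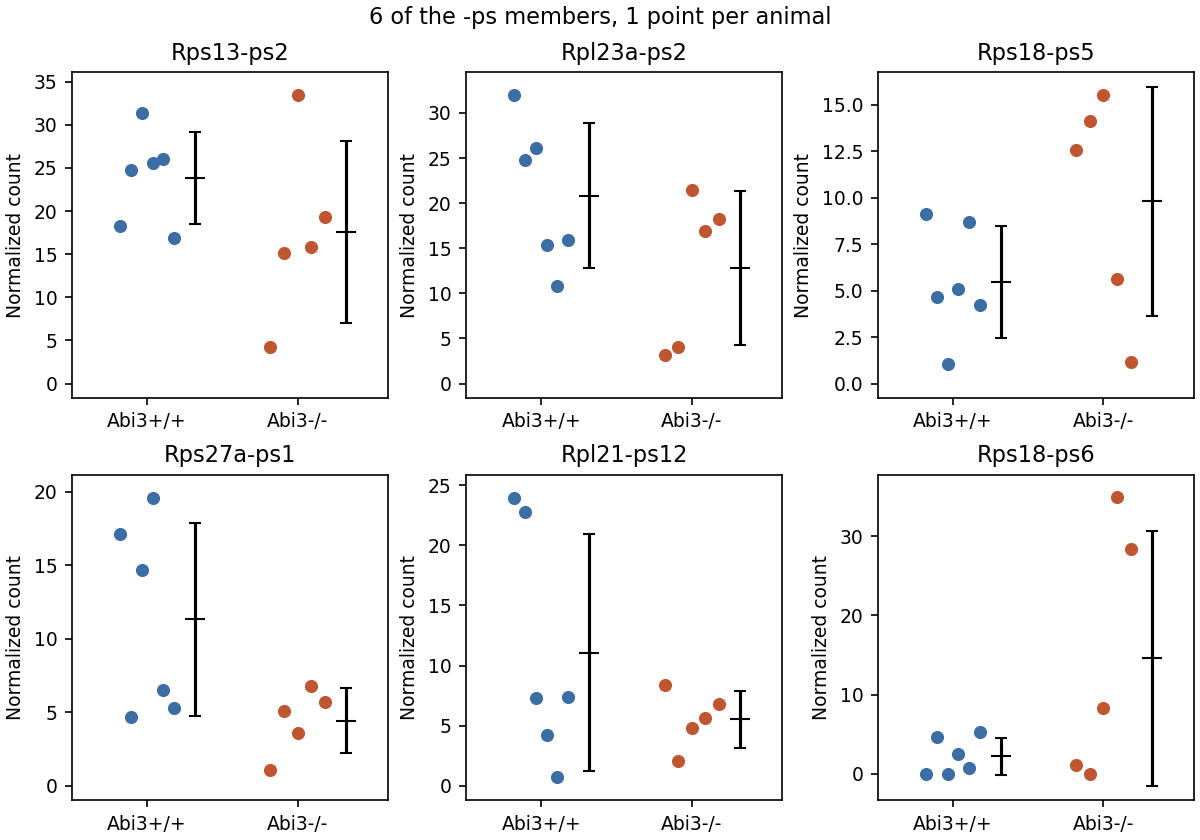
Normalized counts of 6 -ps members, with 1 point per animal and bars for the mean ± SD of 6 Abi3+/+ (blue) and 5 Abi3-/- (orange) animals. The genotypes overlap in each panel, and 2 Abi3-/- animals of Rps18-ps6 and 2 Abi3+/+ animals of Rpl21-ps12 stand above the rest.

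Among copies of large-subunit genes, Rpl21-ps12 and Rpl23a-ps2 had animals that stood apart. Rpl21-ps12 (ENSMUSG00000058700, processed pseudogene, chromosome 6, 90821963 to 90822442, minus strand, in an intron of Iqsec1 on the same strand) had raw counts of 21, 34, 7, 5, 1 and 7 in Abi3+/+ animals 1 to 6 and of 8, 2, 4, 5 and 6 in Abi3-/- animals 1 to 5. Abi3+/+ animals 1 and 2 were high and all others low, and the log2 fold change of -0.999 (SE 0.7) did not pass (DESeq2 adjusted p = 0.77). Iqsec1 had a log2 fold change of -0.05 (SE 0.11) and Rpl21 one of 0.04 (SE 0.214), and in Rpl21 animals 1 and 2 were not set apart in the same way, with 823 and 652 normalized counts against 327 to 702 in the other Abi3+/+ animals.

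A stretch of Rpl21-ps12 is given with the matching Rpl21 sequence (chr6:90822003-90822132, minus strand, GRCm39), with the 4 differing bases in capitals.
Rpl21-ps12: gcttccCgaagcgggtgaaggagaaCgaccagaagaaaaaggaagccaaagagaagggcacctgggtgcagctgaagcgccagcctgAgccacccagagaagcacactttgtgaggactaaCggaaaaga
Rpl21: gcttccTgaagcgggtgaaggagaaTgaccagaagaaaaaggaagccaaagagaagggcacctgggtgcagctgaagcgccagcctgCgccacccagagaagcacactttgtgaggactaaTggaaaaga
The 4 changes in these 130 bases are T317C, T336C, C398A and T432C, with the Rpl21 base first and positions counted from the 5′ end of the copy.

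Rpl23a-ps2 (ENSMUSG00000081968, processed pseudogene, chromosome 11, 70770254 to 70770727, plus strand, in an intron of Rabep1 on the same strand) copies a gene whose protein lies at the exit of the ribosome tunnel. Its raw counts were 3, 4, 18, 15 and 16 in Abi3-/- animals 1 to 5, and from 15 to 37 in Abi3+/+ animals. Abi3-/- animals 1 and 2 were low and the other 3 lay within the Abi3+/+ range. The log2 fold change was -0.71 (SE 0.478, DESeq2 adjusted p = 0.752), against 0.15 (SE 0.078) for Rabep1 and 0.04 (SE 0.0701) for Rpl23a.

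Rpl23a-ps2 differs from Rpl23a at more bases than either copy of Rps18 does from its parent, as the following stretch shows (chr11:70770524-70770673, plus strand, GRCm39, capitals for differing bases).
Rpl23a-ps2: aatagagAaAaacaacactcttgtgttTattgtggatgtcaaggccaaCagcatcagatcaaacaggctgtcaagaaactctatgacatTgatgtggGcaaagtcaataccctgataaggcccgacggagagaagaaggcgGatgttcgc
Rpl23a: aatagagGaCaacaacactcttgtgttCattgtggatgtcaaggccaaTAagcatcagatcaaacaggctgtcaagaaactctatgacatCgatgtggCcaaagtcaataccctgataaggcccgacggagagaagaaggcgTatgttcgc
The stretch holds 7 changed bases in Rpl23a-ps2, and the Rpl23a line has 8 capitals because 1 of its bases is missing from the copy. The other copy of this gene, Rpl23a-ps14 (chromosome 11, 108607309 to 108607732, in an intron of Cep112 on the same strand), had normalized counts of 4.19, 7.07, 2.39, 21.5 and 17.1 in Abi3-/- animals 1 to 5 and of 3.42 to 17.99 in Abi3+/+ animals. These are the 2 members on the chromosome of Abi3, at 25.0 and 12.9 Mb from it, and neither passed. The deleted gene and any flanking DNA that came with it cannot be told apart.

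In the remaining large-subunit copies the genotypes overlapped and none passed the test. Rpl38-ps2 (chromosome 6, 140692686 to 140692898, identical to Rpl38) had 16.2 ± 5.03 (SD, n = 6) normalized counts in Abi3+/+ and 18.9 ± 8.17 (SD, n = 5) in Abi3-/- animals, with a log2 fold change of 0.22 (SE 0.402). Rpl31-ps8 (chromosome 15, 90648482 to 90648859, identical to Rpl31) had 14.2 ± 5.61 and 10.6 ± 7.3, with Abi3-/- animals at 4.19, 21.2, 8.36, 4.52 and 14.8, and a log2 fold change of -0.41 (SE 0.499). Rpl9-ps6 (chromosome 19, 32443265 to 32443978, annotated as protein-coding) had 9.85 ± 5.2 and 13.3 ± 4.6 and a log2 fold change of 0.43 (SE 0.5).

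Rpl30-ps9, on chromosome X, had 13.6, 6.06, 3.58, 4.52 and 0 normalized counts in Abi3-/- animals 1 to 5 against 5.35 to 13.6 in Abi3+/+ animals (log2 fold change -0.68, SE 0.636). Rpl36-ps12, in an exon of Sumf1, had 1.05, 8.08, 1.19, 6.78 and 6.83 against 4.26 to 10.1 (log2 fold change -0.73, SE 0.638). In both, the lowest animals were Abi3-/- animals and the rest overlapped. Rpl14-ps1, Rpl3-ps1, Rpl10-ps3 and Rpl10a-ps1 had log2 fold changes of 0.36, 0.20, 0.28 and 0.14, and SEs of 0.56, 0.649, 0.656 and 0.656.

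On/off patterns were then counted by a fixed definition, in which each animal has either 3 or fewer raw counts (off) or 10 or more (on) and both kinds are present. By it 0 of the 23 members were on/off, while 80 of the 15035 genes with a sum of at least 50 were (0.532%) and 3 of the 205 processed pseudogenes (1.46%). Of the members, 17 had animals of both kinds, but each of these also had at least 1 animal between. Gm11942 missed the definition by 1 animal, Abi3-/- animal 3 with 4 counts, although the definition would then place Abi3-/- animal 4, with 11 counts, among those that are on. Rpl23a-ps2 missed it by Abi3-/- animal 2, also with 4 counts.

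A second definition asked for a step of at least 4-fold between neighbouring animals once they are ordered by normalized count, with each count raised to at least 3. Gm11942 met it with a step of 112-fold, between 12.4 and 1397 normalized counts, and was the only member to do so. The share of all genes with such a step was 0.333%, and 6 of the 205 processed pseudogenes had one (2.93%). Since Gm11942 was selected on this difference, nothing is read from its step. The largest steps of the -ps members were 3.61-fold in Rps13-ps2, where Abi3-/- animal 1 stood below the rest, and 3.405-fold in Rps18-ps6, where Abi3-/- animals 4 and 5 stood above.

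**Figure D5:**
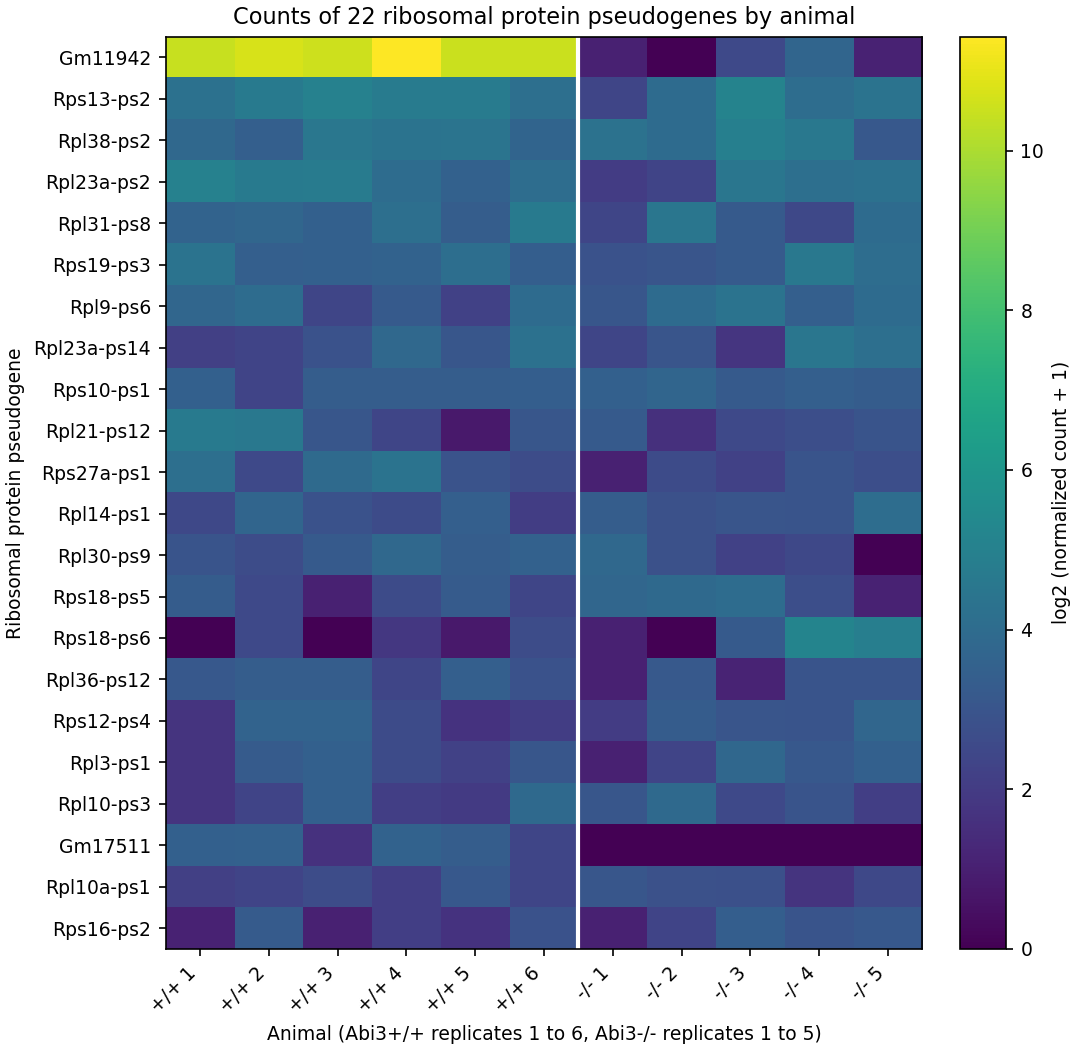
Log2(normalized count + 1) of 22 of the 23 pseudogenes (rows, by summed count) in 6 Abi3+/+ and 5 Abi3-/- animals (columns, split by a white line). Gm11942 and Gm17511 change at the line, the latter with only 2 raw counts in Abi3+/+ animal 3. Low and high animals of the 20 -ps members drawn are scattered over both groups, with Abi3-/- animal 1 the lowest in 7 of them.

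The scatter between animals was compared with that of other genes of like count. The variance within groups was a median of 2.51 times the mean over the 21 -ps members (0.416 to 15.2), and 3.32 times over the 4275 genes with sums in the same range. A ratio of at least 3 was found in 8 of the 21 members and in 57.6% of those genes. These are descriptions without a test.

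One animal was low in many members. Abi3-/- animal 1 had the lowest normalized count of all 11 animals in 7 of the 21 -ps members, among them Rps13-ps2, Rpl23a-ps2, Rpl31-ps8 and Rps27a-ps1, whereas each other animal was lowest in 0 to 3. It was not low in all, with 13.6 normalized counts of Rpl30-ps9 and 12.6 of Rps18-ps5. Reads of all -ps genes, those below the limit included, amounted to 56.6 CPM (counts divided by the total of reads in genes and put on a common scale) in this animal and to 79.8 to 104.6 CPM in the other Abi3-/- animals. The group means were 91.6 ± 6.98 (SD, n = 6) CPM in Abi3+/+ and 83.5 ± 17.5 (SD, n = 5) in Abi3-/- libraries, or 90.2 ± 10.4 without that animal. Its total of 3566664 reads in genes lay inside the range of the others.

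Differences in the parent genes were small, apart from Rplp1. Of the 20 parents, Rplp1 included, 15 had a log2 fold change above 0, with a median of 0.02, and 1 passed, Rpl3, whose protein lines the peptidyl transferase centre (log2 fold change 0.37, SE 0.0906, DESeq2 adjusted p = 0.019). Rpl3 did not pass with edgeR (adjusted p = 0.0916), limma (0.0788), the replicate block or 7 of the 11 fits that left out an animal, and its adjusted p ran from 0.00254 to 0.249 over the alternatives. Over the 88 cytosolic ribosomal protein genes tested, 1 was higher and 0 lower, 9 had an unadjusted p under 0.05, and 64 had a log2 fold change above 0, with a median of 0.03. Over all 17626 genes tested, 0.17% were higher and 0.159% lower, 8.58% had an unadjusted p under 0.05, and the median was -0.00334. With Rpl3 higher in every Abi3-/- than in any Abi3+/+ animal, its copy Rpl3-ps1 ran from 2.28 to 10.5 normalized counts in Abi3+/+ and from 1.05 to 13.1 in Abi3-/- animals, which overlap.

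The members at the limit carry the least information. Just inside it were Rps16-ps2 with 54 counts and Rpl10a-ps1 and Gm17511 with 57 each, and just outside were Rps10-ps2 with 47 and Rps19-ps6 with 46. The counts of Rps10-ps2 were 1 to 8 in Abi3+/+ and 1 to 9 in Abi3-/- animals, and those of Rps19-ps6 were 1 to 9 and 1 to 5. Of the 23 members, 16 reached 50 counts within the Abi3+/+ group and 6 within the Abi3-/- group, and these numbers share members that did so in each. A further 6 reached 50 only with both groups summed. The Abi3+/+ group held 1 more animal and the 3 deepest libraries.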

How the data were processed

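Cortical RNA of 11 animals was sequenced by QuantSeq, and 1 table of raw counts per Ensembl gene was deposited for each. The authors aligned trimmed single-end reads with STAR 2.7.3a to GRCm39 and counted them by strand with HTSeq 0.9.1 in intersection-nonempty mode. Reads that align to several places were tallied apart and entered no gene. No collapsing of PCR copies is stated, so intervals cover counting error only. Members, gene lists and tests were chosen with earlier results of these data known. Symbols and positions came from a more recent GENCODE annotation of GRCm39, which held 98.0% of the identifiers.

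Genotype was tested with DESeq2 1.42.0 (R 4.3.3) as in the study's methods, on genes with at least 10 counts in total, with results where the mean normalized count reached 1.5, and Benjamini-Hochberg adjustment over all 17626. Independent filtering was switched off, since it removes the low counts of most members. Log2 fold changes are Abi3-/- over Abi3+/+. Alternatives were edgeR 4.0.16 (quasi-likelihood), limma 3.58.1 (voom), TMM factors, other filters, a replicate block and leaving out each animal. Parents were found with BLAST 2.17.0. The rule for named members took both copies of Rplp1, the 6 with the highest mean, the 4 highest and 4 lowest log2 fold changes at a mean of at least 10, those at the count limit and all parents, so the other members were named after their values were seen. Exact tests used scipy 1.17.1. The values of 1 member are not reported here, although it is in every count.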

Additional observations from a re-analysis of the deposited data

Results flagged for a closer look

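In 49 groups of values (each member in each genotype, and both sums of -ps counts), 4 values, from 3 animals, lay far from the others of their genotype by Dixon's criterion, where chance gives about 2.45 such values if the groups were independent. Gm11942 stood at 2748 normalized counts in Abi3+/+ animal 4, against 1719 in the nearest Abi3+/+ animal. Rplp1 was at its lowest in the same animal, at 1465 normalized counts. The sum of Gm11942, Gm17511 and Rplp1 was 4224 there, inside the Abi3+/+ range of 3983 to 4654. In Abi3-/- animals that sum ran from 3725 to 4294. Rps10-ps1 stood at 4.01 in Abi3+/+ animal 2, against 9.37 in the nearest, and this rests on 6 raw counts. The sum of the 21 -ps members was 181.8 normalized counts in Abi3+/+ animal 5, against 208.9 in the nearest. In the same animal, reads of all -ps genes were 78.4 CPM (counts scaled to reads in genes), against 91.5 in the nearest, and both sums share most of their reads.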

How the results depend on the processing

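The number of members higher in Abi3-/- animals was 0 under all alternatives run. The number lower, 2 in the reported fit, was 1 with limma, with independent filtering on, at a mean count of at least 10 and at a count sum of at least 100, and stayed at 2 in the 11 fits that left out 1 animal. The call lost was that of Gm17511, which had a log2 fold change of -3.83 and an adjusted p of 0.0788 with limma, no adjusted p with independent filtering on, and a log2 fold change of -5.27 and an adjusted p of 0.104 with the replicate block, the highest of a range from 0.00314 over its alternatives. At a mean of at least 10 and a sum of at least 100, it is not among the members tested (8 and 11). Same-numbered animals did not deviate together (correlations of -0.00485 to 0.0656), so the numbers pair no animals, and with the replicate block 1 member passed and the median log2 fold change was 0.10.

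The median log2 fold change of the members was 0.14, and -0.43 at a mean of at least 10, -0.24 at a sum of at least 20 (49 genes), -0.41 at a sum of at least 100 (11 genes), and -0.18 to 0.17 without 1 animal, so it has no stable direction. On/off members numbered 0, and 1 by the 4-fold step, and 0 to 1 without 1 animal (Gm11942 without Abi3-/- animal 3, Rpl23a-ps2 without Abi3-/- animal 2). The log2 fold change of Rps19-ps3 ran from -0.45 to 0.0695 without 1 animal, above 0 in 4 of the 11 fits, and that of Rpl38-ps2 from -0.00344 (without Abi3-/- animal 3) to 0.41. The summed counts of Gm11942, Gm17511 and Rplp1 changed by -7.00% in normalized counts and -9.44% in CPM. What caused these changes was not tested. Low mean normalized counts, 4.74 to 20.99, limit the precision for -ps members.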
